A study of Mus musculus with 9 samples.

Results

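The 8 genes described here were followed through the 2 layers of the mouse mammary epithelium. They are the basal transcription factor Trp63, the transition factors Snai1, Snai2, Zeb1, Zeb2, Twist1 and Twist2, and the filament protein gene Vim. The members were all probes whose target name in the deposited raw table is TRP63, SNAI1, SNAI2, ZEB1, ZEB2, TWIST1, TWIST2 or VIM, which are 8 of 30774 gene names on the array. They hold 13 of its 45281 probes. A probe was tested where 3 or more of the 9 arrays detected it (a detection value above 0.99), and 7 of the 13 probes were, 1 for each gene except Twist2.

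Cells were sorted from the mammary glands of 10-week-old virgin C57BL/6 mice with the Lgr5-GFP-IRES-CreERT2 allele, in which GFP reports activity of the Lgr5 locus. The groups were Lgr5+ basal, Lgr5- basal and luminal cells, with 3 arrays each. All 9 samples carry the same genotype label, and the luminal samples are labelled wild-type for Lgr5 expression. Each sample came from pool 1, 2 or 3. The sources used here give neither the mice per pool nor the sort markers and gates, and the spread between pools is the only error measured.

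p63 is the master regulator of stratified and basal epithelium and is required for the mammary gland to form. Snai, Zeb and Twist proteins are DNA-binding repressors or activators that bind E-boxes, short DNA motifs, and drive the epithelial-mesenchymal transition, in which epithelial cells lose E-cadherin junctions and gain vimentin filaments. In the mammary gland Snai2 and vimentin are also part of the normal basal, myoepithelial layer, which is contractile and lies on the basement membrane. Comparing the basal with the luminal groups asks how far this program separates the layers, and comparing the basal groups asks whether it differs with Lgr5.

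Promoters are shown for 4 members because the Snai, Zeb and Twist proteins are themselves E-box binders, and because Twist1 and Twist2 had a like pattern across the groups. Each stretch is the 250 bases before the RefSeq start on the plus strand of GRCm38.p6, written 5′ to 3′, with an E-box in capitals. Stretches of RefSeq's promoter table were read for 5 of the 8 members (Snai1, Zeb2, Twist1, Twist2 and Vim). None was read for Trp63, Snai2 and Zeb1. The search was set to pass over 1 chromosome, so for a gene there this does not say that the table lacks it. A member on any other chromosome had no entry under its name. The Snai1 stretch is chr2:167537945-167538194, Twist1 chr12:33957421-33957670, Twist2 chr1:91801211-91801460 and Vim chr2:13574061-13574310.
Snai1: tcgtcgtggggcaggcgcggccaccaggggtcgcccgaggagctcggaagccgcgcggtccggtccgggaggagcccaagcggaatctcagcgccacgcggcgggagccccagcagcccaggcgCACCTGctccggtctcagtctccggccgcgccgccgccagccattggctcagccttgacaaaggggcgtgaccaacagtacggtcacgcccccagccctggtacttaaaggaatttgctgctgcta
Twist1: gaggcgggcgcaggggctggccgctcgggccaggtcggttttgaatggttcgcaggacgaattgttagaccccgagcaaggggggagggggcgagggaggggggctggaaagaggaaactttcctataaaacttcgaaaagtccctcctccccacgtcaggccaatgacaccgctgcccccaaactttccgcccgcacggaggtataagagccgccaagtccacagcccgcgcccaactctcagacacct
Twist2: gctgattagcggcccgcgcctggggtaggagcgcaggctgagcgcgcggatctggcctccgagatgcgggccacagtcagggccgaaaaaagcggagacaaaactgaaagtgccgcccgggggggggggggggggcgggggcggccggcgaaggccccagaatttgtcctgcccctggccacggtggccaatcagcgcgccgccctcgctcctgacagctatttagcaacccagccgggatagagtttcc
Vim: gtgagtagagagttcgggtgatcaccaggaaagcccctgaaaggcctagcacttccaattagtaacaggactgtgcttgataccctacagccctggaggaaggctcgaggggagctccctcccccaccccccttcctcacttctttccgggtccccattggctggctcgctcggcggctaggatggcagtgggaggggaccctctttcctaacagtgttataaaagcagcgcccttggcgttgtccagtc
The letters searched were CANNTG, which reads the same on both strands, and within it CAGGTG or its reverse complement CACCTG, the core that Snai and Zeb proteins bind. The Snai1 stretch held 1, a CACCTG 126 bases before the start. The Twist1, Twist2 and Vim stretches held none, nor did any of the 4 Zeb2 stretches, which are not printed. Of 32851 promoter stretches of this length in the table, 66.2% held CANNTG and 17.2% held CAGGTG or CACCTG. GC content was 70% for Snai1, 62.4% for Twist1, 68.8% for Twist2 and 58.4% for Vim, against a median of 52.4%. These matches describe letters only.

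The arrays were first checked against their labels. Between 15235 and 17423 probes were detected per array, and the number of arrays limits the precision. Lgr5 stood at 9.78, 9.83 and 10.65 on the Lgr5+ basal arrays and at 8.24, 8.14 and 8.94 on the Lgr5- basal arrays. These values are on the authors' normalized log2 scale, which all levels below share. Lgr5 was detected on every basal array, so the Lgr5- basal samples held Lgr5 RNA too, and on no luminal array. The basal groups differed in Lgr5 by 1.65 (limma adjusted p = 0.0246). All 11 tested basal layer markers were higher in both basal groups than in luminal cells, and all 13 tested luminal markers were lower. Cnn1 and Oxtr were detected on no luminal array, and Epcam on no basal array. Each of them entered the test through the other layer alone, so its direction was fixed and is no check of the labels. Markers of other cell types were detected in each group. Whether this was RNA of other cells or expression in the sorted cells themselves was not tested. Of the 13 luminal markers, 10 to 12 were detected on each basal array, Epcam on none of them. Of 6 tested haematopoietic markers, 4 to 6 were detected on each basal array and 2 to 3 on each luminal one, with summed intensities of 678 to 1556 and 230 to 369. Ptprc, Cd3g and Itgam were detected on no array. One luminal array stood apart in the sum of the basal markers, and less so in their median. The summed intensity of the 11 basal markers was 23811 on luminal replicate 2, against 5320 and 5029 on the other luminal arrays and 106923 to 121478 on the basal arrays. Their median level was 7.85, 8.04 and 7.11 on luminal replicates 1, 2 and 3.

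Trp63, Snai2 and Vim formed a strong basal set: Trp63 was 61.4-fold and 64.1-fold higher in Lgr5+ and Lgr5- basal than in luminal cells, Vim 17.5-fold and 16.5-fold, and Snai2, undetected on 2 of 3 luminal arrays, 35-fold and 45.1-fold with those arrays set at their detection level. Snai1, Zeb1 and Zeb2 lay near the detection limit and differed less. Twist1 was detected only in Lgr5- basal cells and Twist2 on only 2 Lgr5- basal arrays. None of the 7 tested members differed between Lgr5+ and Lgr5- basal cells at the threshold used (limma, Benjamini-Hochberg adjusted p under 0.05 over all 17712 detected probes).

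**Figure D1:**
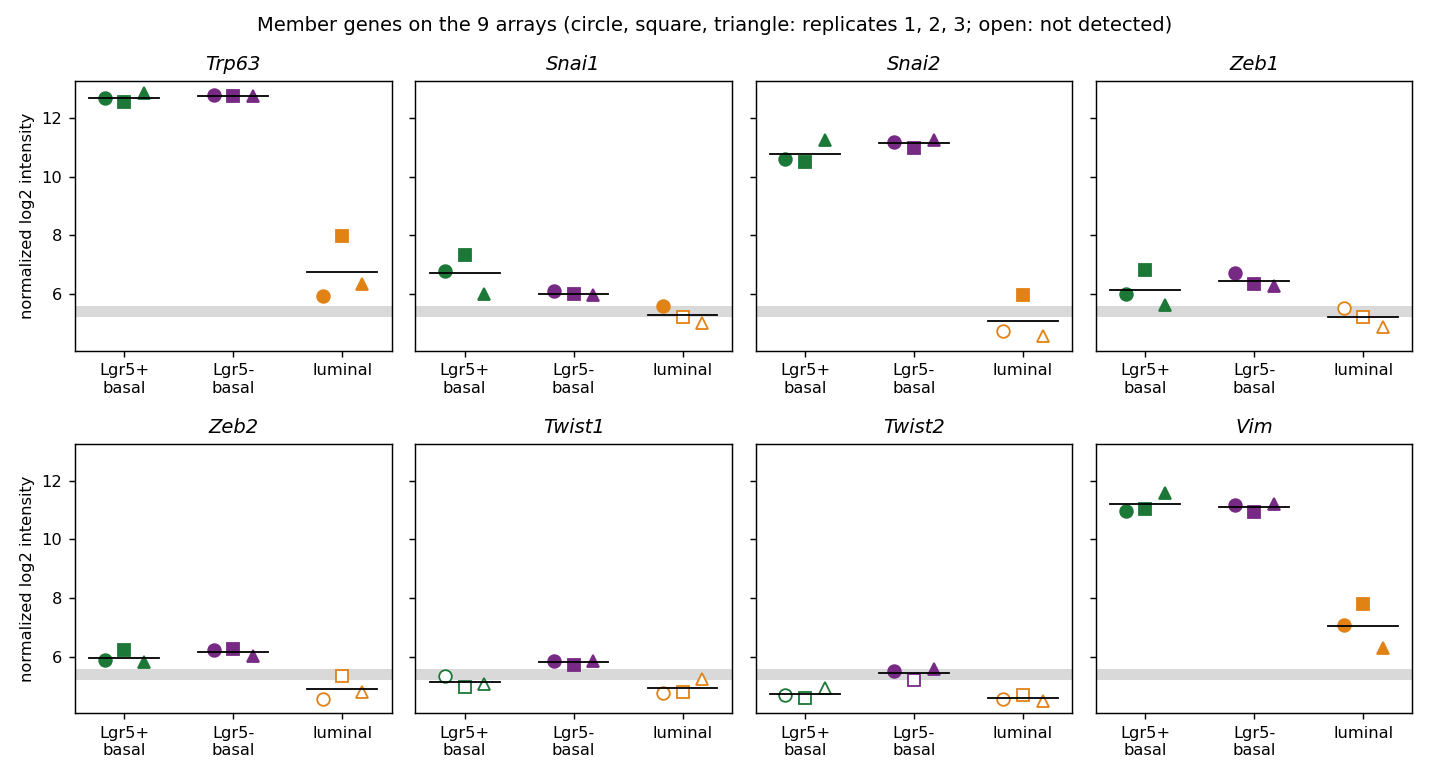
Normalized log2 intensity of the probe of each gene (for genes with several probes, the only detected one) on the 9 arrays, with circles, squares and triangles for replicates 1, 2 and 3, lines for group means and open symbols where the probe was not detected. The grey band spans the lowest level at which a probe was called detected on each array, 5.22 to 5.60; Trp63, Snai2 and Vim sit far above it on the basal arrays and Twist1 and Twist2 sit near it throughout.

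Trp63 was the first member of the strong basal set. Its level was 12.68, 12.56 and 12.84 on Lgr5+ basal replicates 1, 2 and 3, 12.77, 12.75 and 12.74 on the Lgr5- basal arrays, and 5.93, 7.99 and 6.33 on the luminal arrays. The basal groups overlapped and every basal array lay above every luminal one, where the probe was still detected on 3 of 3. Lgr5+ basal cells were at 12.69 ± 0.14 (SD, n = 3) against 6.75 ± 1.09 in luminal cells, a log2 difference of 5.94 (SE 0.413, 61.4-fold, limma adjusted p = 6.88e-07). For Lgr5- basal cells at 12.75 ± 0.02 the difference from luminal cells was 6.00 (64.1-fold, limma adjusted p = 6.36e-07). Between the basal groups it was -0.06, with a 95% interval of -0.97 to 0.85 (limma adjusted p = 0.97). In sorted bulk samples, fewer cells of a type and less RNA per cell cannot be told apart, so the luminal values of Trp63 do not say how many luminal-sorted cells carried it. The brightest Trp63 value was 27.9% of its array's maximum. The files do not say which p63 isoforms the probe reads, and the second Trp63 probe was detected on no array.

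Snai2, the Slug repressor of E-cadherin, had a like pattern. Its level was 10.59, 10.49 and 11.24 on the Lgr5+ basal arrays, 11.18, 10.98 and 11.26 on the Lgr5- basal arrays, and 4.75, 5.96 and 4.56 on the luminal arrays. Only luminal replicate 2 had a detected value among the luminal arrays, and no luminal value reached a basal one. Lgr5+ basal cells (10.77 ± 0.40) exceeded luminal cells (5.09 ± 0.76, n = 3 each) by 5.69 (SE 0.339, 51.5-fold, limma adjusted p = 2.48e-07), and Lgr5- basal cells (11.14 ± 0.14) did so by 6.05 (66.3-fold, limma adjusted p = 1.59e-07). With the 2 undetected luminal arrays at the lowest level called detected on them, the luminal mean was 5.64 and the folds were 35 and 45.1. The basal groups differed by -0.37 (95% interval -1.11 to 0.38, limma adjusted p = 0.675). Within pools 1, 2 and 3 that difference was -0.59, -0.49 and -0.02, so pool 3 hardly differed.

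Vim encodes vimentin, an intermediate filament protein of mesenchymal and myoepithelial cells. It was at 10.96, 11.04 and 11.57 on the Lgr5+ basal arrays, 11.16, 10.94 and 11.21 on the Lgr5- basal arrays and 7.07, 7.81 and 6.31 on the luminal arrays, detected on all 9. The basal groups overlapped and lay wholly above the luminal group. Vim was 4.13 higher in Lgr5+ basal (11.19 ± 0.33) than in luminal cells (7.06 ± 0.75), with SE 0.326, 17.5-fold and limma adjusted p = 1.88e-06. In Lgr5- basal cells (11.10 ± 0.15) it was 4.04 higher (16.5-fold, limma adjusted p = 2.18e-06). The basal groups differed by 0.09 (95% interval -0.63 to 0.81, limma adjusted p = 0.941), and the second Vim probe was detected on no array.

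Luminal replicate 2, the array with the highest summed basal marker intensity, was also the highest luminal array for Trp63, Snai2, Vim, Zeb2 and Twist2. No luminal array detected Zeb2 or Twist2, so their order there is one of background values. Snai1 and Zeb1 were highest on luminal replicate 1, and Twist1 on luminal replicate 3. Krt5 and Krt14, the keratins of the basal layer, were at 6.95 and 12.10 there, against 5.45 and 4.86 and against 8.95 and 9.46 on the other luminal arrays. Among the luminal arrays, the medians of the endothelial, fibroblast, pericyte, haematopoietic and adipocyte markers were also highest there. The part of RNA of basal or other cells in the member values on luminal replicate 2 was not tested. Without it, the difference between Lgr5+ basal and luminal cells was 6.56 for Trp63, 6.12 for Snai2 and 4.50 for Vim. For Lgr5- basal cells it was 6.62, 6.49 and 4.42 in the same order, so each of these differences was larger without that array.

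Snai1, the Snail repressor, was the only member with a higher mean in Lgr5+ than in Lgr5- basal cells apart from Vim. Its level was 6.78, 7.32 and 6.01 on the Lgr5+ basal arrays, 6.09, 6.00 and 5.96 on the Lgr5- basal arrays and 5.60, 5.23 and 5.03 on the luminal arrays, where 1 of 3 was detected. The Lgr5+ basal arrays were widely spread, and the lowest of them lay within the Lgr5- basal range. The means were 6.71 ± 0.66, 6.02 ± 0.07 and 5.29 ± 0.29 (SD, n = 3). Lgr5+ basal exceeded luminal cells by 1.42 (SE 0.291, 2.67-fold, limma adjusted p = 0.00213), or 2.26-fold with the 2 undetected luminal arrays at their detection level. Lgr5- basal cells exceeded luminal cells by 0.73 with no overlap, and this did not pass (95% interval 0.09 to 1.37, limma adjusted p = 0.0657). The call was made when pool was a replicate block (limma adjusted p = 0.0398) or BeadChip a block (0.0282), in a fit of those 2 groups alone (0.013) and without Lgr5+ basal replicate 2 (0.0325) or 3 (0.0151).

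The Snai1 difference between the basal groups was 0.69 (SE 0.291, 95% interval 0.05 to 1.33, unadjusted p = 0.0378, limma adjusted p = 0.292), and it was 0.69, 1.32 and 0.05 within pools 1, 2 and 3. It was thus larger in pools 1 and 2, hybridized on BeadChip 1, where it was 1.01 (limma adjusted p = 0.0573), than in pool 3, the only one on BeadChip 2. It passed without Lgr5+ basal replicate 3 (1.03, limma adjusted p = 0.027) and with array weights (1.19, limma adjusted p = 0.0045), which gave Lgr5+ basal replicate 2 a weight of 5.95 against 0.35 to 2.03 for the other arrays. Without Lgr5+ basal replicate 2 it was 0.38 (limma adjusted p = 0.62).

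Zeb1 is a zinc-finger repressor of E-cadherin and of the miR-200 family, which in turn represses it. It was at 6.01, 6.81 and 5.62 on the Lgr5+ basal arrays, 6.72, 6.35 and 6.29 on the Lgr5- basal arrays and 5.53, 5.21 and 4.89 on the luminal arrays, where it was not detected. The basal groups overlapped, and the lowest Lgr5+ basal value lay just above the highest luminal one. Against luminal cells (5.21 ± 0.32) Zeb1 was at least 1.54-fold higher in Lgr5+ basal cells (6.15 ± 0.61, limma adjusted p = 0.0213) and at least 1.9-fold higher in Lgr5- basal cells (6.45 ± 0.23, limma adjusted p = 0.00526). These bounds put each undetected array at the lowest level called detected on it, or at its own value where that was higher. Zeb1 entered the test through basal arrays alone, so it had to lie higher there, and its p-values against luminal cells are no support for a difference. The Lgr5+ basal call was lost without Lgr5+ basal replicate 2 (0.61, limma adjusted p = 0.0795), luminal replicate 2 (0.94, 0.0537) or luminal replicate 3 (0.78, 0.0725), with no background correction (0.28, 0.0696) and with no filter (0.94, 0.0544). Between the basal groups the difference was -0.31 (95% interval -0.95 to 0.34, limma adjusted p = 0.684), and pool 2 (0.46) ran opposite to pools 1 (-0.71) and 3 (-0.67).

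Zeb2, also called Sip1, has the same type of zinc fingers and binds Smad proteins. It was at 5.90, 6.22 and 5.81 on the Lgr5+ basal arrays, 6.24, 6.27 and 6.02 on the Lgr5- basal arrays and 4.56, 5.36 and 4.81 on the luminal arrays, where it was not detected. Every basal array was above every luminal one, and the basal groups overlapped. Zeb2 was at least 1.37-fold higher in Lgr5+ basal (5.98 ± 0.22) than in luminal cells (4.91 ± 0.41, limma adjusted p = 0.00222) and at least 1.58-fold higher in Lgr5- basal cells (6.18 ± 0.14, limma adjusted p = 0.000748). Like Zeb1, it entered the test through basal arrays alone, so these p-values are no support for a difference. The basal groups differed by -0.20 (95% interval -0.69 to 0.28, limma adjusted p = 0.729). The 2 other Zeb2 probes and the second Snai1 probe were detected on no array. Nor were probes under the older target names of the Zeb genes, ZFHX1A and ZFHX1B, which the member names leave out.

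The Twist genes encode helix-loop-helix factors best known from mesoderm and bone. Twist1 was at 5.33, 4.97 and 5.09 on the Lgr5+ basal arrays, 5.87, 5.73 and 5.87 on the Lgr5- basal arrays and 4.78, 4.80 and 5.23 on the luminal arrays. Only the 3 Lgr5- basal arrays detected it, and these lay above all 6 others. Twist1 was at least 1.23-fold higher in Lgr5- basal (5.82 ± 0.08) than in luminal cells (4.94 ± 0.25, limma adjusted p = 0.00223), and Lgr5+ basal (5.13 ± 0.18) and luminal cells, both not detected, get no fold (limma adjusted p = 0.398). Between the basal groups Twist1 was at least 1.3-fold higher in Lgr5- basal cells, with measured means that differed by -0.69, and it did not pass (limma adjusted p = 0.117). Twist1 entered the test through the Lgr5- basal arrays alone, so it had to lie lower in both other groups, and its p-values against them are no support for a difference. Within pools 1, 2 and 3 the measured difference was -0.53, -0.76 and -0.78, and it was -0.65 within BeadChip 1 and -0.78 within BeadChip 2. It passed with array weights (-0.79, limma adjusted p = 0.00289) and was -0.18 with no background correction (limma adjusted p = 0.318).

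Twist2 was detected on Lgr5- basal replicates 1 and 3 alone, so it was not tested. Its level was 4.69, 4.61 and 4.94 on the Lgr5+ basal arrays, 5.50, 5.22 and 5.60 on the Lgr5- basal arrays and 4.58, 4.71 and 4.49 on the luminal arrays. As for Twist1, the Lgr5- basal arrays lay above the other 6. The Lgr5+ minus Lgr5- difference was -0.80, -0.62 and -0.67 within pools 1, 2 and 3. Neither of the other groups was above background on any array, so no fold or p is given against them.

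**Figure D2:**
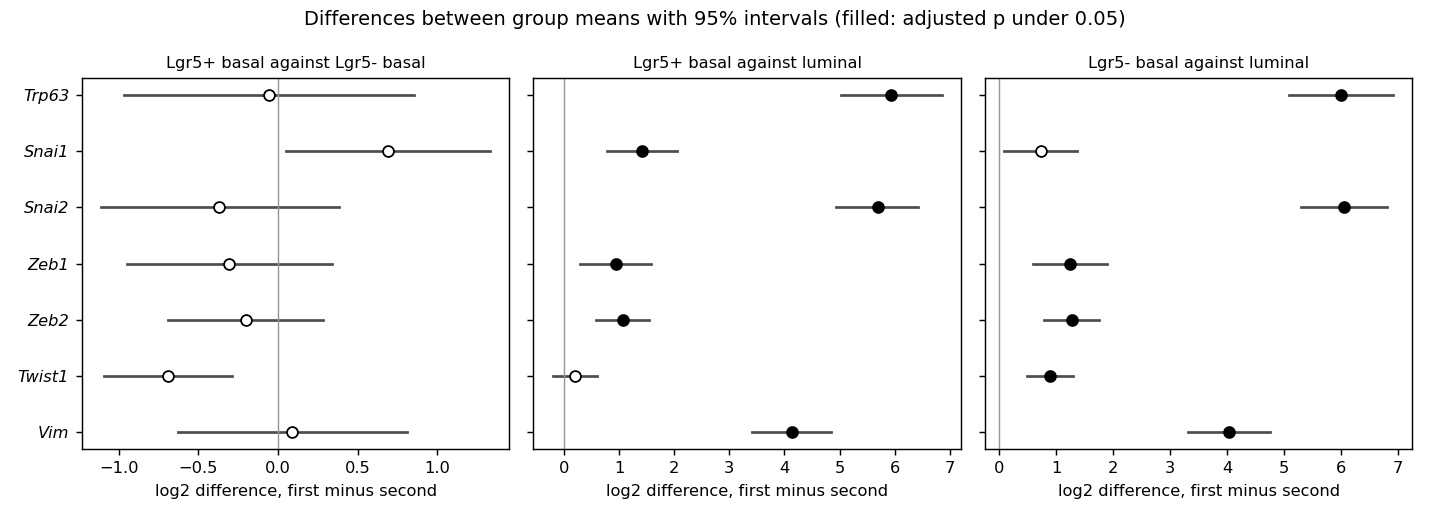
Log2 differences between group means for the 7 tested genes in the 3 comparisons, with 95% intervals of limma and filled points where the adjusted p was under 0.05. The intervals of Trp63, Snai2 and Vim lie far above 0 against luminal cells, and between the basal groups the interval of Snai1 (0.05 to 1.33) leaves out 0 without passing after adjustment, as does that of Twist1 (-1.09 to -0.29), which was detected in Lgr5- basal cells alone.

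Of the 7 tested member probes, 0 passed between Lgr5+ and Lgr5- basal cells (limma), 2 (Snai1 and Twist1) had an unadjusted p under 0.05, and 171 of the 17712 probes passed in either direction, or 0.965%. The count was 0 with pool as a replicate block, 2 with array weights and 0 to 1 when single arrays were left out. One of the 7, Twist1, had groups that did not overlap, as did 21.6% of all tested probes, but its entry through the Lgr5- basal arrays fixed that direction. Against luminal cells 6 of 7 were higher in Lgr5+ basal cells (Twist1 did not pass), where 48% of probes passed in either direction and 22.8% were higher, and 6 of 7 in Lgr5- basal cells (Snai1 did not pass), where 42.6% passed and 20.7% were higher. Zeb1, Zeb2 and Twist1 were detected on no luminal array and entered the test through basal arrays, so they had to lie higher there and the counts of 6 give no support of their own. The 2 luminal comparisons share the luminal arrays. The 6 probes outside the test are Twist2 and the 5 second probes, which the authors also set aside.

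Markers of other cell types moved with some members on single arrays. The median level of the 12 tested endothelial markers was 9.53 on Lgr5+ basal replicate 2, 8.01 on replicate 1 and 7.10 on replicate 3, and 8.04 to 8.26 on the Lgr5- basal arrays. Their summed intensity was 2318 to 10320 in Lgr5+ basal, 4810 to 6021 in Lgr5- basal and 1955 to 3363 in luminal cells. All 12 were detected on every basal array, while Kdr, a receptor that defines endothelium, was detected on none. Snai1, Zeb1 and Zeb2 took the same order on the 3 Lgr5+ basal arrays as this median, highest on replicate 2 and lowest on replicate 3, and Twist1 did not. The medians of the adipocyte, haematopoietic, pericyte and Schwann cell markers took this order too. Those of the luminal and fibroblast markers were also highest on Lgr5+ basal replicate 2, and that of the basal markers was not. The median of 4 tested adipocyte markers was 7, 8.04 and 6.57 on Lgr5+ basal replicates 1, 2 and 3, with 3 of 8 listed (Plin1, Fabp4 and Cidec) detected on none of them, and that of the 6 haematopoietic markers was 6.36, 6.79 and 6.30. The adipocyte gene Cfd, adipsin, passed between the basal groups (3.02, limma adjusted p = 0.0227), and the other 3 tested adipocyte markers did not. No Lgr5- basal array detected Cfd, so 3.02 is a difference from background. Its call was lost under 8 of 22 alternatives, with adjusted p up to 0.109, and the list's median difference was -0.04. The haematopoietic gene Cd3e (-0.88, limma adjusted p = 0.0384) and the pericyte gene Mcam (1.04, 0.047) also passed, and each lost its call under 11 of 22 alternatives. The part of RNA of any of these cell types in the member values was not tested. Without Lgr5+ basal replicate 2, the difference between Lgr5+ basal and luminal cells was 1.11 for Snai1 (limma adjusted p = 0.00761) and 0.95 for Zeb2 (limma adjusted p = 0.0124).

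**Figure D3:**
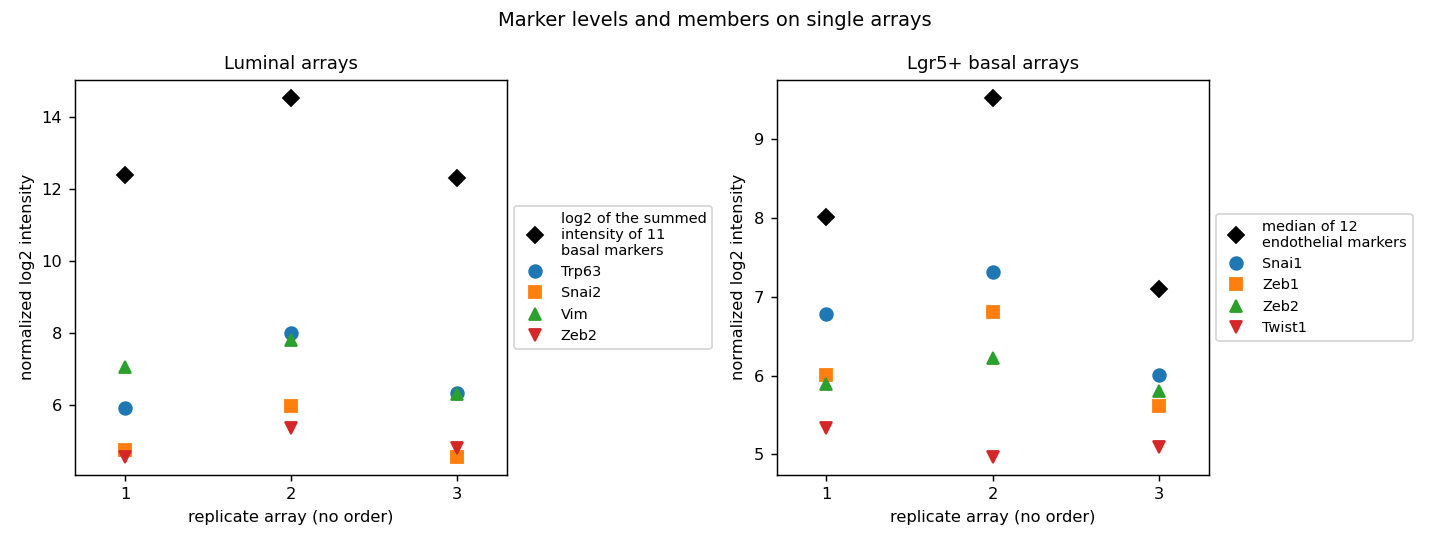
Members and marker levels on single arrays, on the normalized log2 scale: on the left the luminal arrays with the log2 of the summed intensity of 11 basal markers (12.38, 14.54 and 12.30), on the right the Lgr5+ basal arrays with the median of 12 endothelial markers (8.01, 9.53 and 7.10). Trp63, Snai2, Vim and Zeb2 peak with the basal markers on luminal replicate 2, and Snai1, Zeb1 and Zeb2 peak with the endothelial markers on Lgr5+ basal replicate 2. Zeb2 was detected on no luminal array. Of the members not drawn on the left, Snai1, Zeb1 and Twist1 do not peak on luminal replicate 2, and the undetected Twist2 does. Medians of several other marker lists also peak on each of these arrays.

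Fibroblast markers did not run one way between the basal groups in which Twist1 and Twist2 were compared. The summed intensity of the 12 tested fibroblast markers was 7110 to 10333 in Lgr5+ basal and 13963 to 14655 in Lgr5- basal cells. It was 20173 to 23803 in luminal cells, where 6 to 9 of the 12 were detected and Pdgfrb and Col1a2 were not, and where Ly6a, which luminal cells also express, stood at 14.28 ± 0.14. Of the 12, Dcn, the proteoglycan decorin, fell by 1.47 in Lgr5+ against Lgr5- basal cells (limma adjusted p = 0.00413) and the other 11 did not pass. The list's median difference was 0.10, and its median level was 6.69, 7.25 and 6.92 on the Lgr5+ basal arrays against 6.75, 6.98 and 6.39 on the Lgr5- basal arrays. Mfap5 (1.27, limma adjusted p = 0.0888), Pi16 (0.54, 0.593) and Fbln1 (0.39, 0.515) had higher means in Lgr5+ basal cells, and Pdgfra, a receptor of fibroblasts, differed by 0.10 (0.866). Prrx1, a homeobox factor of mesenchyme, stood at 5.31 ± 0.21, 6.14 ± 0.73 and 5.01 ± 0.55 in Lgr5+ basal, Lgr5- basal and luminal cells, and did not pass between the basal groups (-0.83, limma adjusted p = 0.301). The part of fibroblast RNA in the Twist values was not tested.

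The wider p63 program was read from lists in which the probe of highest mean stood for each gene. In these and the later lists, genes that no luminal array detected, such as Jag2, Meox1, Synm, Nes and Fn1, entered the test through basal arrays alone. They had to lie higher there, so their p-values against luminal cells are no support for a difference. The p63 target list shares Krt5, Krt14, Itga6 and Itgb4 with the basal markers used to check the labels. Of 18 tested genes reported as p63 targets of basal epithelium, 17 were higher and 1 lower in Lgr5+ basal than in luminal cells, with a median log2 difference of 2.13 (1.96 with genes undetected in a group at their bound), where 24.3% of 12670 genes were higher and the median of all genes was -0.01. In Lgr5- basal cells 16 were higher, 1 lower and 1 did not pass, with a median of 2.04, where 21.4% of genes were higher. Igfbp3, which binds insulin-like growth factors, stood at 13.09 ± 0.04 and 12.77 ± 0.32 in Lgr5+ and Lgr5- basal cells against 6.23 ± 1.14 in luminal cells (6.86 and 6.54, limma adjusted p = 4.17e-07 and 5.62e-07). Krt5 was 6.47 and 6.33 higher (limma adjusted p = 3.55e-07 and 3.91e-07), and the laminin chain gene Lamb3 was 4.28 and 4.29 higher (2.19e-08 and 2.54e-08). Jag2, a Notch ligand that luminal arrays did not detect, was at least 7.85-fold and 10-fold higher (1.63e-07 and 9.83e-08). The target that ran the other way, named after its values were seen, was the growth factor receptor gene Fgfr2, whose difference of -0.79 in Lgr5+ basal cells (limma adjusted p = 0.00682) did not pass with median centring (0.107). Between the basal groups 0 of 18 passed in limma and 2 had an unadjusted p under 0.05.

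Of 9 tested genes of the p53 family and p63 partners, 5 were higher and 4 did not pass in each basal group against luminal cells, with medians of 0.77 and 0.83 (0.62 and 0.46 at the bound), where 24.3% and 21.4% of all genes were higher. Trp53, which encodes p53, stood at 10.63 ± 0.14 in Lgr5+ basal, 10.77 ± 0.16 in Lgr5- basal and 9.40 ± 0.46 in luminal cells (1.24 and 1.37, limma adjusted p = 0.00105 and 0.000547). Trp73, the third family member, did not reach the 3 arrays needed for a test. Dlx3, a homeobox factor of epidermis and its appendages, was the only gene of the list to pass between the basal groups, where 0.987% of genes passed. It was at 6.42, 6.25 and 6.13 on the Lgr5+ basal arrays, 7.50, 8.05 and 7.62 on the Lgr5- basal arrays and 5.46, 5.62 and 5.41 on the luminal arrays. No Lgr5+ basal value reached an Lgr5- basal one, and the difference was -1.46 (SE 0.185, limma adjusted p = 0.0056). The call held under all 22 alternatives, with differences of -1.57 to -0.70.

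Other transcription factors reported in transition did not all follow the members. Of 11 tested, 5 were higher and 3 lower in Lgr5+ basal than in luminal cells, and 5 higher and 4 lower in Lgr5- basal cells, with medians of 0.38 and 0.87. Of all genes, 24.3% were higher and 23.9% lower in the first comparison, and 21.4% and 22.1% in the second. Meox1, a homeobox factor of mesoderm, was detected on no luminal array and was at least 10.1-fold and 9.29-fold higher (limma adjusted p = 5.47e-08 and 6.11e-08). The E-protein gene Tcf4 was 1.25 and 1.18 higher (limma adjusted p = 0.000186 and 0.00028), and Sox4 1.58 and 0.97 higher (0.000341 and 0.00862). Tcf3, the E-protein gene E2A, was read from the target TCFE2A, since the target TCF3 may carry an older name of Tcf7l1 and no file settles it. It lay near background and was lower, at least 1.32-fold in Lgr5+ basal cells (limma adjusted p = 0.0211) and by -0.61 in Lgr5- basal cells (0.039). These Tcf3 calls were lost under 5 and 12 of 22 alternatives, up to adjusted p of 0.163 and 0.266, among them the fits without luminal replicate 1 in both comparisons, without Lgr5+ basal replicate 1 in the first, and with pool as a replicate block in the second. Sox9, a factor of luminal progenitors and of cartilage, was lower, by -0.86 and -1.33 (limma adjusted p = 0.00143 and 6.49e-05). Snai3, the remaining Snai family gene, was detected on all 9 arrays and differed by 0.38, 0.01 and 0.37 in the 3 comparisons (limma adjusted p = 0.189, 0.987 and 0.48, in the order Lgr5+ basal against luminal, Lgr5- basal against luminal, and between the basal groups). None of the 11 passed between the basal groups in limma and 4 had an unadjusted p under 0.05. One of these 4, the T-box repressor gene Tbx3 (0.98, limma adjusted p = 0.138), passed under 4 alternatives, pool as a replicate block among them.

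Factors of the epithelial state, some of them known to oppose the Zeb genes, divided into those lower in the basal groups and those that did not pass. Of 13 tested, 8 were lower and 0 higher in Lgr5+ basal than in luminal cells, where 23.9% of genes were lower, and 9 lower and 0 higher in Lgr5- basal cells, where 22.1% were. Foxa1, a luminal pioneer factor, was -5.04 and -4.60 from luminal cells (limma adjusted p = 1.02e-06 and 2e-06), the milk regulator Elf5 -4.43 and -4.42 (1.63e-07 and 1.62e-07) and Grhl1, a grainyhead factor, -4.06 and -3.37 (4.09e-07 and 1.58e-06). The epithelial splicing factor gene Esrp2 was -2.97 and -2.88 away (limma adjusted p = 7.99e-06 and 1e-05). Grhl2, which represses Zeb1, differed by 0.11 and 0.01 (limma adjusted p = 0.763 and 0.976), Ovol1 by -0.40 and -0.70 (0.452 and 0.199) and Ovol2 by -0.75 and -0.23 (0.0514 and 0.557). Ovol2 passed in the first of these under 6 alternatives, among them pool as a replicate block and the fits without Lgr5+ basal replicate 2 or 3 or luminal replicate 3. Between the basal groups 0 of 13 passed in limma, and 1 had an unadjusted p under 0.05.

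Most epithelial genes reported as repressed by the transition factors were lower in the basal layer. The list shares Krt8, Krt18, Krt19 and Epcam with the luminal markers used to check the labels, so it is no separate reading for these genes. Epcam was detected on no basal array and entered the test through luminal arrays alone. It had to lie lower in the basal groups, so its place in the counts is no support for a difference. Of 21 tested, 19 were lower and 2 higher in Lgr5+ basal cells, with a median of -2.16, where 23.9% of all genes were lower and 24.3% higher, and 19 lower and 1 higher in Lgr5- basal cells, with a median of -2.80 (-2.47 at the bound), where 22.1% were lower and 21.4% higher. Cdh1, which encodes E-cadherin, the defining target of Snai and Zeb proteins, was at 10.58 ± 0.26 in Lgr5+ basal, 10.37 ± 0.14 in Lgr5- basal and 11.69 ± 0.05 in luminal cells. It was thus detected in all groups and lower in the basal ones, by -1.10 and -1.32 (limma adjusted p = 0.000395 and 0.000111). The luminal keratin genes Krt18 and Krt19 were -3.50 and -4.45 from luminal cells in Lgr5+ basal cells (limma adjusted p = 7.17e-08 and 1.64e-07), and the tight junction gene Cldn3 -3.96 (1.76e-07). The 2 higher genes, named after their values were seen, were the desmosome genes Dsp (1.27, limma adjusted p = 0.000218) and Pkp3 (0.97, 0.0325). The Pkp3 call was lost under 7 of 22 alternatives, including the fits without Lgr5+ basal replicate 1 or 2 or luminal replicate 1 or 3, with adjusted p up to 0.116. Between the basal groups 0 of 21 passed in limma and 3 had an unadjusted p under 0.05, the smallest for the tight junction gene Ocln (1.05, limma adjusted p = 0.0723). Every Lgr5+ basal array detected Ocln and no Lgr5- basal array did, so 1.05 is a difference from background. Ocln passed under 4 of 22 alternatives, among them BeadChip as a block and the fit without Lgr5+ basal replicate 3, with differences of 0.29 to 1.23 over all 22.

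**Figure D4:**
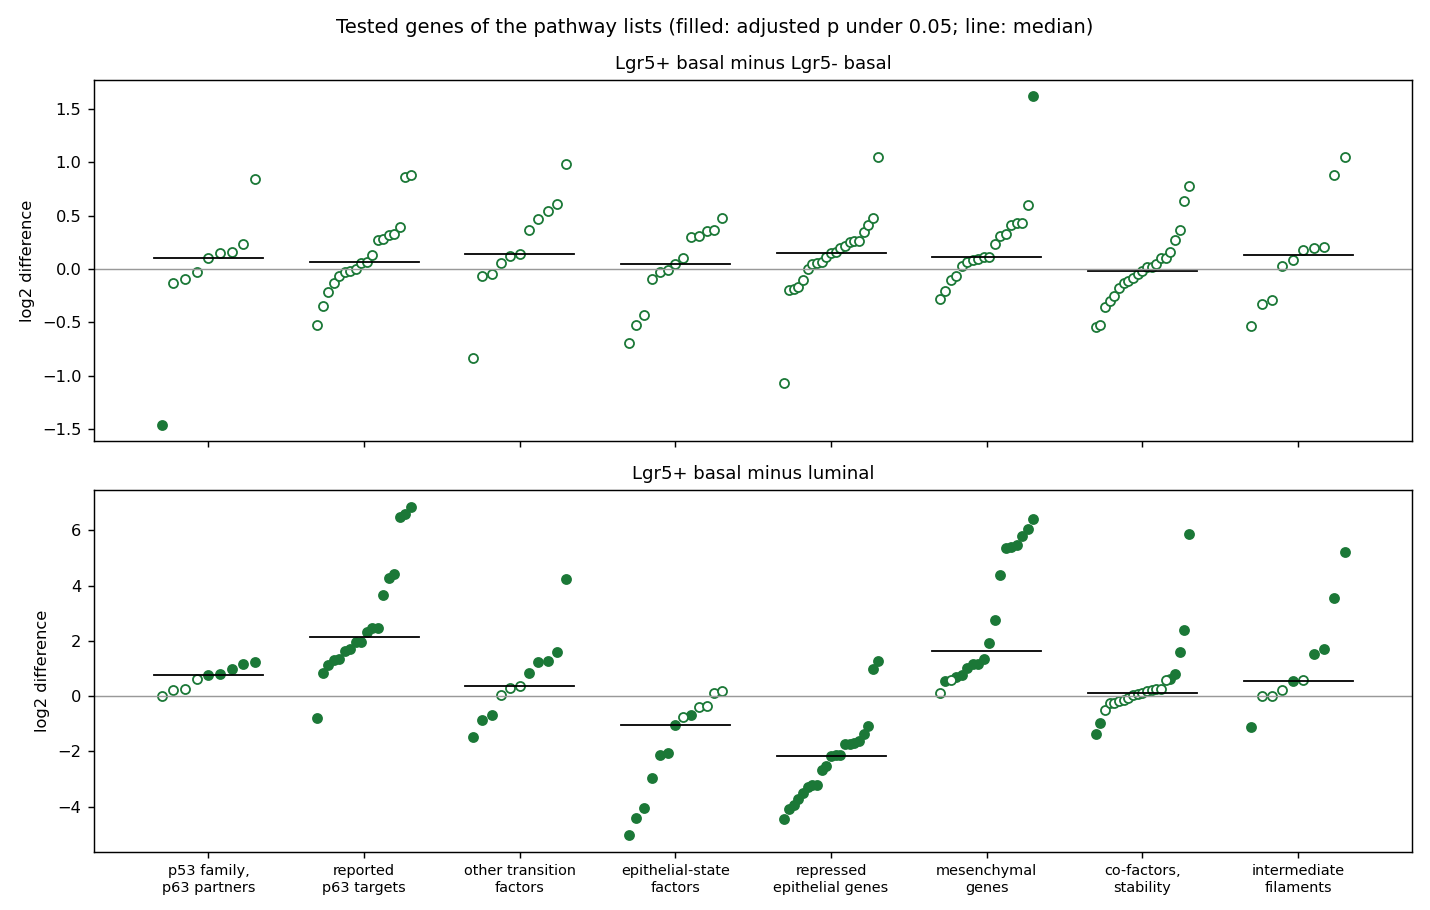
Log2 differences of the tested genes of 8 lists, 1 point per gene, filled where the limma adjusted p was under 0.05, with a line at each list's median: Lgr5+ minus Lgr5- basal above and Lgr5+ basal minus luminal below (different scales). Filled points between the basal groups are Dlx3 (-1.46) and Col6a1 (1.62), while against luminal cells the p63 target and mesenchymal lists have medians of 2.13 and 1.63 and the repressed epithelial list of -2.16.

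Most mesenchymal genes reported to rise in transition were higher in the basal layer. Of 18 tested, 16 were higher and 0 lower in Lgr5+ basal than in luminal cells (median 1.63, or 1.54 at the bound), and 13 higher and 0 lower in Lgr5- basal cells (median 1.21). The others, 2 and 5 genes, did not pass, and of all genes 24.3% and 21.4% were higher. Mmp2, a gelatinase, was 6.43 and 6.00 higher (limma adjusted p = 1.13e-08 and 1.67e-08), Tgfb1i1, a focal adhesion protein gene, 5.41 and 5.69 higher (1.73e-08 and 1.67e-08), and Sparc, which encodes a collagen-binding protein, 5.80 and 5.90 higher (1.31e-07 and 1.16e-07). Cdh2, the N-cadherin gene of the classical cadherin switch, was detected on 1 array in each group, and its means were 5.33 ± 0.33, 5.25 ± 0.68 and 5.23 ± 0.57. Fn1, the fibronectin gene, was detected on no luminal array. It was at least 1.24-fold higher in Lgr5+ basal cells (limma adjusted p = 0.0322, up to 0.218 over the alternatives, 9 of which lost the call, each fit without luminal replicate 1, 2 or 3 or Lgr5+ basal replicate 2 or 3 included), and did not pass in Lgr5- basal cells (0.86, limma adjusted p = 0.108). Several genes of this list, such as Acta2, the smooth muscle actin gene, belong to contractile myoepithelium too.

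Col6a1, a collagen VI chain gene, was the only gene of that list to pass between the basal groups. It was at 12.42, 11.95 and 12.31 on the Lgr5+ basal arrays, 10.62, 10.40 and 10.80 on the Lgr5- basal arrays and 6.65, 6.81 and 6.77 on the luminal arrays. The 3 groups were wholly separate, and Lgr5+ exceeded Lgr5- basal cells by 1.62 (SE 0.182, limma adjusted p = 0.00352), a call that held under all 22 alternatives. The only list members to pass between the basal groups among the 8 lists drawn were Dlx3 and Col6a1.

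A few genes of proteins that work with the members differed between the layers, with Id4 at a difference near that of Trp63. Of 21 tested co-factors and regulators of stability of Snai, Zeb and Twist, 5 were higher, 2 lower and 14 not past the threshold against luminal cells, in each basal group, with medians of 0.12 (0.06 at the bound) and 0.08. Of all genes 24.3% were higher and 23.9% lower in Lgr5+ basal cells, and 21.4% and 22.1% in Lgr5- basal cells, so these counts are near or under the background. Id4, an inhibitor of helix-loop-helix factors, stood at 11.09 ± 0.66 in Lgr5+ basal, 11.61 ± 0.33 in Lgr5- basal and 5.22 ± 0.97 in luminal cells (5.87 and 6.38, limma adjusted p = 1.59e-06 and 7.94e-07). Id1, of the same family, was 2.39 and 1.61 higher (limma adjusted p = 0.000118 and 0.00201). Pak1, a kinase that phosphorylates Snai1, was lower, by -1.39 and -1.22 (limma adjusted p = 9.83e-05 and 0.000279), as was the E-protein gene Tcf12 (-0.99 and -0.88, 0.00418 and 0.00929), whose calls were lost with median centring (0.0571 and 0.0972). None passed between the basal groups in limma, 4 had an unadjusted p under 0.05, and Ctbp2, a co-repressor that Zeb proteins recruit, differed by -0.54 (limma adjusted p = 0.132).

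Of 10 tested genes of other intermediate filaments and vimentin partners, 5 were higher and 1 lower in Lgr5+ basal than in luminal cells and 4 higher and 1 lower in Lgr5- basal cells, with medians of 0.56 and 0.66 (0.40 and 0.42 at the bound), where 24.3% of all genes were higher and 23.9% lower in the first comparison and 21.4% and 22.1% in the second. Synm, the gene of synemin, which builds filaments with vimentin or desmin, was detected on no luminal array and was at least 24.7-fold and 35.8-fold higher (limma adjusted p = 5.89e-07 and 2.95e-07). Nes, the gene of nestin, another such partner, was at least 6.34-fold and 3.06-fold higher (limma adjusted p = 1.19e-06 and 1.84e-05). Des, the gene of desmin, was 1.51 and 1.84 higher (limma adjusted p = 0.000239 and 5.55e-05). Nes differed most between the basal groups among these 10, by 1.05 (limma adjusted p = 0.102), which passed with array weights and without Lgr5+ basal replicate 3, and 0 of 10 passed in limma, with 2 at an unadjusted p under 0.05.

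The genes whose pattern lay nearest each member were found by the root-mean-square difference over the 9 arrays, each gene centred on its own mean, among 9252 tested genes with a name. This measure is a description over arrays that share groups. The nearest to Trp63 were Tagln, Tpm2 and Sparc (0.24, 0.26 and 0.27 on the log2 scale), and the nearest to Snai2 were Sparc, Fstl1 and Wif1 (0.19, 0.23 and 0.24). Trp63 and Snai2 thus shared Sparc. Vim lay nearest to Col16a1, Sema5a and Ccn2 (0.22, 0.22 and 0.23). Snai1 lay nearest to Nnmt, Lox and Adamtsl5 (0.21, 0.22 and 0.26), of which Lox encodes a collagen cross-linking enzyme. For Zeb1 they were Acer2, Gdf10 and Dock10 (0.10, 0.22 and 0.23), and for Zeb2 Celf2, Rab32 and Hyal2 (0.13, 0.15 and 0.15). For Twist1 they were Coch, Ing5 and Ctbp2 (0.18, 0.19 and 0.19), the last of these a member of the co-factor list. The members near background vary over a narrow range, so small distances are easier to reach for them than for Trp63, Snai2 and Vim.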

How the data were processed

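Total RNA of 9 sorted samples was hybridized to Illumina mouse BeadChips. The deposited raw table holds a linear intensity per probe. Its detection columns are headed as a p-value, but they hold a fraction that rises with signal, so 1 minus that fraction served as the p. A further deposited column flags probes the authors set aside, for low expression or poor annotation per the file headers. The series matrix holds the authors' log2 values, with a median of 4.84 on each array, and GenomeStudio and limma are the tools in the submitters' processing notes. Normexp correction with an offset of 16 and quantile normalization of the raw table gave values within 0.0284 of them, which identifies the scale.

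The authors' log2 values of 17712 detected probes (detection value above 0.99 on 3 arrays) were fitted with limma 3.58.1 in R 4.3.3, as 3 group means. Tests were two-sided, residual degrees of freedom were 6 and those of the prior 4.67, and p-values were adjusted over these probes (Benjamini-Hochberg, threshold 0.05). The fit was tested on simulated data. Probes were renamed by RefSeq symbol (27400) or synonym (8300), and 9581 kept the table's name. Tcf3 was read from the target TCFE2A, because TCF3 is also an older name of Tcf7l1, for which the array lists no other target. The files give no accession that settles which gene the target TCF3 reads. The files name no genome build. The members and the 16 lists (219 genes, 175 tested) were chosen with earlier results of these data known. Named were all members, the 4 genes of each list with the smallest p over the 3 groups and the 2 with the smallest between the basal groups, Lgr5, 27 landmark genes and the 3 genes nearest each member, some left out for space. After removal of group means, arrays of the same pool, a number from the labels, correlated with r of 0.23 to 0.40 between the basal groups and 0.11 to 0.37 between Lgr5- basal and luminal arrays, so pools pair those groups. For Lgr5+ basal and luminal arrays r was 0.08 to 0.11. The main fit left the pairing by pool out, and the alternative with pool as a replicate block took it in. Pool 3 was the only pool on BeadChip 2, so for it pool and BeadChip cannot be told apart. Alternatives changed the background correction, normalization, filter, block, weights, prior and the arrays used.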

Additional observations from a re-analysis of the deposited data

How the results depend on the processing

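No member difference changed sign while called, under any of 22 alternatives. With array weights 2 member probes passed between the basal groups, and leaving out single arrays gave 0 to 1, with 5 to 6 between Lgr5+ basal and luminal cells and 6 to 7 between Lgr5- basal and luminal cells. The 171 probes called between the basal groups became 55 with median centring (40% higher, against 49.1%), 92 in a fit of those 2 groups alone, 917 within BeadChip 1 (36.2% higher), 3630 with array weights, and 48 to 1292 without single arrays. It was 48 without Lgr5- basal replicate 1, 56 and 65 without Lgr5+ basal replicates 1 and 2, 63 and 107 without Lgr5- basal replicates 2 and 3, and 1292 without Lgr5+ basal replicate 3. Pool as a replicate block gave 183, and it changed no member call other than that of Snai1 between Lgr5- basal and luminal cells. The 7538 calls between Lgr5- basal and luminal cells became 4967 with median centring, and 6298 to 7847 without single arrays. Without background correction the differences from luminal cells fell to 4.70 (Trp63), 3.46 (Snai2) and 3.15 (Vim) for Lgr5+ basal cells, and to 0.48 for Snai1, 0.28 for Zeb1 and 0.29 for Zeb2. The causes were not tested. Of 1056 list counts under alternatives, 76 differed from the reported count by over 1.5 times. Signal over background limits Zeb1, Zeb2, Twist1 and Twist2.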
